A study of Macaca mulatta with 2 samples.

Results

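The TRAV10+ENSMMUG00000059234+ cells are a small group among circulating T cells of a rhesus monkey that were sorted as CD4+CD8+ double-positive (DP). They were chosen by a gate on raw counts, which took every kept cell with at least 1 unique molecular identifier (UMI) of *TRAV10* and at least 1 of ENSMMUG00000059234. A UMI marks 1 captured RNA molecule, so that its copies are counted once. The gate held 146 of 7601 kept cells, a share of 1.92% (1.62 to 2.26).

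The cells came from blood of 1 rhesus monkey (*Macaca mulatta*), a healthy and untreated male 6 years old. Their RNA was read from the 5′ end of transcripts, and antibody tags for CD4 and CD8 were read in a second library. CD4+ cells were taken with magnetic beads and then those carrying CD8 were taken among them, so every share below is a share of this sort and not of blood. There is 1 sample without replicates, and no test was possible. Both libraries share 7923 barcodes, none of them repeated, which hold 32297887 gene UMIs, 3533968 CD4 tag UMIs and 3868998 CD8 tag UMIs. Barcodes were kept if they had between 200 and 4000 genes and no more than 20% of UMIs from mitochondria.

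In humans, invariant natural killer T (iNKT) cells carry an alpha chain in which *TRAV10* is joined to *TRAJ18*, and this receptor recognizes lipids presented by CD1d. Their development depends on the transcription factor PLZF, which is encoded by *ZBTB16*. Mature iNKT cells carry receptors that are also found on natural killer (NK) cells, and they respond quickly without passing through a naïve stage in the periphery.

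The gated cells were set beside 102 kept cells that had *TRAV10* but no ENSMMUG00000059234 (TRAV10-only cells) and beside 7064 other kept cells with *CD3E* and no *TRAV10*. The summed gene UMIs were 633988, 477483 and 29006868 in the 3 groups. The median cell had 3899 UMIs in the gate, 3760.5 among TRAV10-only cells and 3645.5 among other CD3E+ cells, so the medians were similar. The deepest cells had 13344, 19733 and 23519 UMIs in the same order. The median mitochondrial share was 4.75% in gated cells, 4.0% in TRAV10-only cells and 3.95% in other CD3E+ cells. *CD3E*, a chain of the CD3 complex that every T cell receptor needs, was found in 145 of the 146 gated cells.

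Expression of a group is given as CPM, the summed UMIs of a gene for every 1000000 gene UMIs of the group. Values in parentheses are 95% intervals, exact Poisson for CPM and exact binomial (Clopper-Pearson) for shares, and for ratios of CPM the interval comes from how a gene's UMIs divide binomially between both groups. They cover counting error only and do not hold the variation between cells or animals. Because the chance of finding a UMI grows with depth, shares are also given after each cell was redrawn at random to 2000 UMIs (thinned), which left 141 gated, 97 TRAV10-only and 6698 other CD3E+ cells. Background came from 86 cells that had 3 or more B cell gene UMIs and no CD3 gene (B gene cells), whose median depth was 4137.5 UMIs.

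The genes of the gate are described first, as the values that chose the cells. *TRAV10* encodes a variable segment of the T cell receptor alpha chain. ENSMMUG00000059234 has no symbol in the files used here, the deposited gene list places it between the beta chain segments *TRBV24-1* and *TRBV27*, and it was given no name. Gated cells had 600 *TRAV10* UMIs, between 1 and 11 per cell with a median of 3, and 539 ENSMMUG00000059234 UMIs, between 1 and 17 per cell with a median of 3. Just inside the gate, 2 cells had exactly 1 UMI of each gene and 31 cells had exactly 1 UMI of at least 1 of them, while 115 cells had at least 2 of each. Just outside it, 31 of the 102 TRAV10-only cells had a single *TRAV10* UMI, and 21 had at least 6. A further 37 CD3E+ cells had ENSMMUG00000059234 without *TRAV10*, 16 of them with 1 UMI. Of the 183 kept cells with ENSMMUG00000059234, 146 were thus in the gate, while 102 of the 248 cells with *TRAV10* were not. Both genes were at 0 in the 86 B gene cells, which allows a background share of up to 3.49%.

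**Figure D1:**
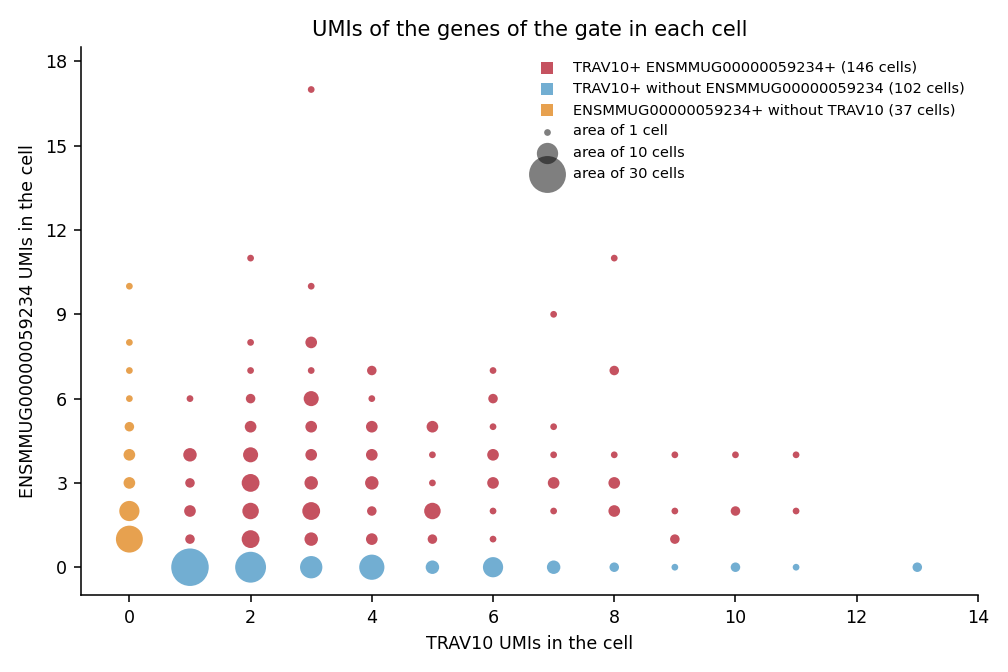
UMIs of *TRAV10* (horizontal axis) and ENSMMUG00000059234 (vertical axis) in each cell that had at least 1 of them, with the area of a circle giving the number of cells and colours giving gated cells, TRAV10-only cells and the 37 cells with ENSMMUG00000059234 alone. The 146 gated cells spread from 1 to 11 *TRAV10* UMIs, and the 102 TRAV10-only cells lie on the horizontal axis.

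The working name of these cells, TRAV10+ invariant NKT-like cells, could be examined only in part. *TRAJ18* had 0 UMIs in every barcode, and no other joining segment of the alpha chain is named among the features, so whether the alpha chain is invariant was not measured. Of 3 NK cell markers found, *NCAM1* and *NCR1* were at 0 in the gated cells but had less than 1 CPM in other CD3E+ cells too, so that these zeros tell nothing at this depth, and *KLRF1* had 115 CPM, with a UMI in 35.6% of them, against 70.2 CPM in other CD3E+ cells. *ZBTB16*, *TYROBP* and *KLRB1*, none of them used by the gate, were all higher in the gated cells than in both other groups. These genes were named as markers of the cells with earlier results of these data known, so their levels are a description and not an independent check. The cells are therefore called here by their gate.

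*ZBTB16* (Mmul_10, chromosome 14, 107205938 to 107403230) encodes PLZF. Gated cells had 83 *ZBTB16* UMIs, or 131 CPM (104 to 162), against 25.1 CPM (13 to 43.9) in TRAV10-only cells and 5.93 CPM (5.08 to 6.89) in other CD3E+ cells. The log2 ratio was 4.46 (4.07 to 4.85) against other CD3E+ cells and 2.38 (1.5 to 3.39) against TRAV10-only cells. The transcript was sparse in single cells, with a lowest and a median count of 0 and a highest count of 4 in the gate. It was found in 43.2% of gated cells (35.0 to 51.6), 9.80% of TRAV10-only cells and 2.08% of other CD3E+ cells, and in 22.0%, 4.12% and 0.970% after thinning. None of the B gene cells had it.

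*TYROBP* (chromosome 19, 35319528 to 35323792) encodes DAP12, the adaptor through which several activating NK receptors signal. Its level was 1074 CPM (995 to 1158) in gated cells, 124 CPM (94.1 to 159) in TRAV10-only cells and 77.1 CPM (74.0 to 80.4) in other CD3E+ cells. The log2 ratios were 3.80 (3.67 to 3.92) and 3.12 (2.73 to 3.53). Gated cells had between 0 and 14 UMIs with a median of 5, whereas the median was 0 in both other groups. The share of cells with a UMI was 93.2% (87.8 to 96.7) in the gate and 80.9% after thinning. It was 20.6% in TRAV10-only cells, 14.8% in other CD3E+ cells and 33.7% (23.9 to 44.7) in the B gene cells. The B gene cells reached 16 UMIs in a cell and other CD3E+ cells 17, so for *TYROBP* the B gene cells are not a plain measure of background, and the shares of the other groups are not read as one. The share of the gated cells was above all of these.

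*KLRB1* (chromosome 11, 10090828 to 10103486) encodes CD161, a C-type lectin receptor of NK cells and innate-like T cells. It reached 787 CPM (720 to 859) in gated cells against 214 CPM (174 to 259) in TRAV10-only cells and 140 CPM (136 to 144) in other CD3E+ cells. The log2 ratios were 2.49 (2.35 to 2.62) and 1.88 (1.57 to 2.20). Cells with a UMI made up 80.8% of the gate (73.5 to 86.9), 34.3% of TRAV10-only cells and 23.6% of other CD3E+ cells, and 72.3%, 25.8% and 17.4% after thinning. Against the TRAV10-only cells, each of the 3 ratios depended on which cells were compared. With TRAV10-only cells of the depth of the middle gated cells, the log2 ratio of *KLRB1* was 0.94, and with the gate set after thinning it was 1.26 for *KLRB1* and 2.11 for *TYROBP*. Without cells that also had another named alpha or beta segment, a setting added after the data were seen that left 78 gated and 29 TRAV10-only cells, it was 1.14 for *ZBTB16* and 1.57 for *KLRB1*.

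The 3 transcripts were also counted together in each cell. At least 2 of them were found in 129 of the 146 gated cells (88.4%, 82.0 to 93.1) and all 3 in 46 (31.5%). Only 4 gated cells had none. At least 2 were found in 14.7% of TRAV10-only cells (8.47 to 23.1) and in 5.95% of other CD3E+ cells (5.41 to 6.52), and all 3 in 3.92% and 0.297%. Of the 37 cells with ENSMMUG00000059234 but no *TRAV10*, 5 had at least 2 and 0 had all 3, which by a limit of 3 counts allows a share of up to 8.11%.

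Genes were then compared across the whole table. A gene was called where the ratio of CPM + 10 was at least 2-fold, among genes with a mean of at least 20 CPM in the groups compared. A gene could pass this filter through its level in only the higher group. Gated cells differed little from other CD3E+ cells by this measure, with 0.671% of 4620 genes at least 2-fold higher (31 genes) and 1.02% at least 2-fold lower (47 genes), and a median log2 ratio over all genes of 0.0093. Against TRAV10-only cells, 1.48% of 4609 genes were higher (68 genes) and 1.48% lower (68 genes), with a median of 0.012. At this depth 20 CPM is about 10 UMIs in TRAV10-only cells, so the second comparison is the noisier one. Only the genes of the gate were left out of these counts. Other receptor segments stayed in, and the rule can set their levels. *TRBV27*, *TRBV9*, *TRBV5-1*, *TRAV12-2* and *TRAV12-3* were among the 10 lowest genes against other CD3E+ cells. The counts depended on the settings, with 12 higher and 21 lower against other CD3E+ cells and 14 and 19 against TRAV10-only cells at a pseudocount of 50, and 53 and 80, then 143 and 158, where totals left out ribosomal and mitochondrial genes. With TRAV10-only cells of the gated cells' middle depth, 192 and 175 genes were called. The shares from the main setting are the background for the counts over gene groups that follow, where a median is of the log2 ratio of CPM + 10 over the members that passed the filter.

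Among 16 transcription factors of T cell lineages, 10 passed the filter. *ZBTB16* was the 1 factor called in either direction against other CD3E+ cells, with a median of 0.28 over the 10 and 0.15 over all 16. With 5.93 CPM in other CD3E+ cells, *ZBTB16* passed the filter there through the gated cells alone. *TBX21*, which encodes the Th1 factor T-bet, had 39.4 CPM (25.5 to 58.2) in gated cells, 10.5 CPM (3.40 to 24.4) in TRAV10-only cells and 27.5 CPM in other CD3E+ cells. It was called against the TRAV10-only cells, from 25 and 5 UMIs, where it passed the filter through the gated cells alone. Against other CD3E+ cells it was not called. *GATA3*, the Th2 factor, had 88.3 CPM in gated and 71.2 CPM in other CD3E+ cells with overlapping intervals (66.7 to 115 and 68.1 to 74.3). *RORA*, a factor of innate-like and Th17 cells, had 162 CPM (133 to 197) against 111 CPM (107 to 115) in other CD3E+ cells. *IKZF2*, which encodes Helios, did not pass the filter, with 25.2 CPM in gated cells (16 UMIs) and 7.10 CPM in other CD3E+ cells.

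Several receptors shared with NK cells were higher. Of 12 found, 6 passed and 4 were at least 2-fold higher in gated cells than in other CD3E+ cells, and none was lower. The median was 1.32 over the 6 that passed and 0.36 over all 12. The same 4, *KLRB1*, *KLRG1*, *NCR3* and *KLRD1*, were higher against TRAV10-only cells. There the median was 1.47 over the members that passed and 0.40 over all 12. *KLRG1*, an inhibitory receptor for cadherins, had 205 CPM (171 to 243) in gated cells, 44.0 CPM in TRAV10-only cells and 46.0 CPM in other CD3E+ cells. *NCR3*, which encodes the activating receptor NKp30, had 74.1 CPM (54.5 to 98.6), 29.3 CPM and 19 CPM. *KLRD1*, which encodes CD94, had 181 CPM (150 to 218), 16.8 CPM (7.23 to 33.0) and 79.3 CPM (76.1 to 82.6). For *KLRD1* the order of the other groups was thus reversed, with TRAV10-only cells the lowest. The log2 ratio of the gated cells was 1.19 (0.91 to 1.46) against other CD3E+ cells and 3.44 (2.41 to 4.68) against TRAV10-only cells. *NCR3* passed the filter against other CD3E+ cells, and *KLRD1* against TRAV10-only cells, through the gated cells alone. *KLRF1*, which encodes NKp80, passed and was not called, with 115 CPM (90.3 to 145) against 70.2 CPM in other CD3E+ cells. *NKG2D*, an activating receptor that is outside the list by its name, had 96.2 CPM (73.6 to 124) in gated cells, 29.3 CPM in TRAV10-only cells and 53.9 CPM in other CD3E+ cells. After thinning, 34.8% of gated cells had *KLRG1* and 27% had *KLRD1*, and neither was found in the B gene cells.

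**Figure D2:**
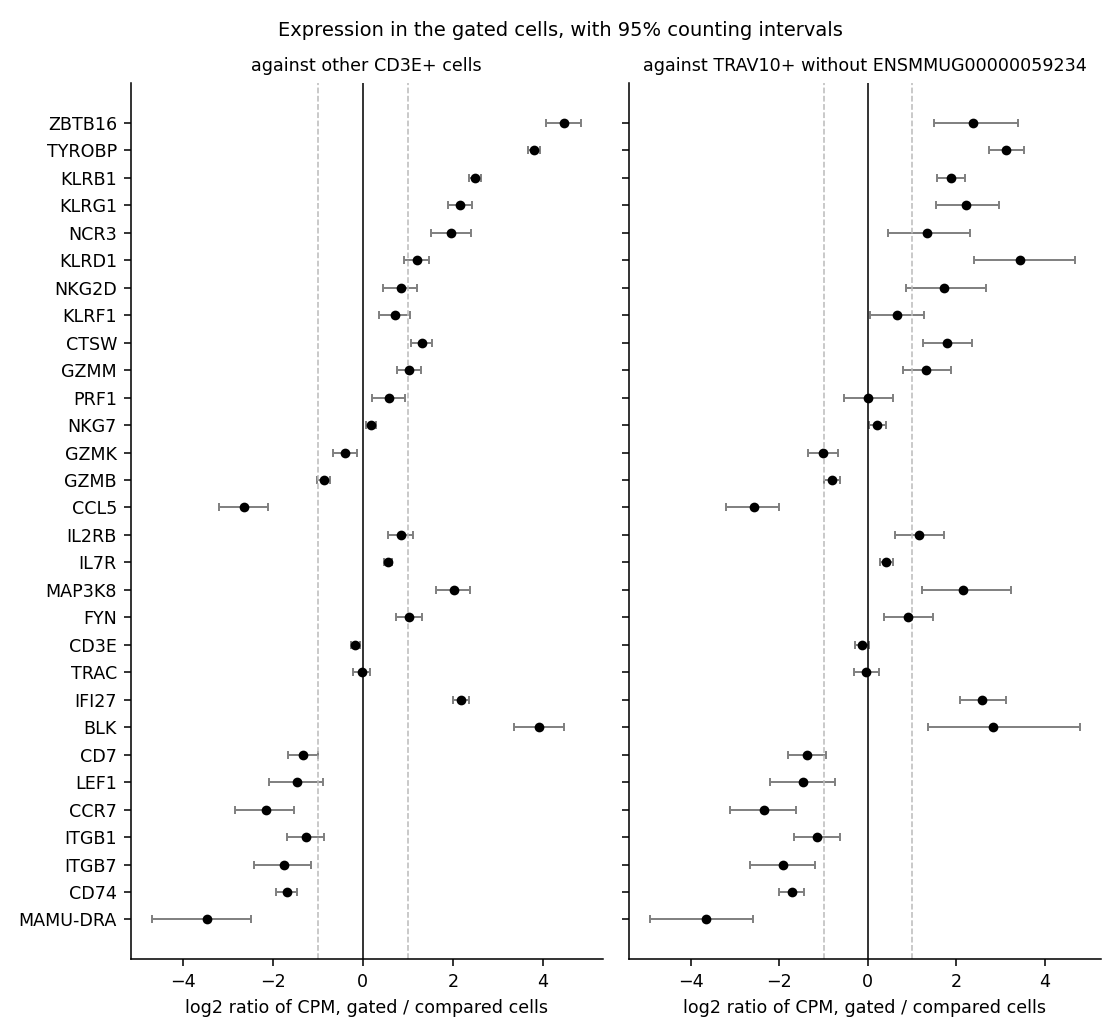
Log2 ratio of CPM of the gated cells to other CD3E+ cells (left) and to TRAV10-only cells (right), with points for the ratio, bars for the 95% counting interval and dashed lines at a 2-fold ratio. *ZBTB16* and *TYROBP* lie above 2 in both panels, *CCL5*, *CCR7* and *MAMU-DRA* lie below -2 in both, and *CD3E* and *TRAC* lie near 0. In the left panel the rule can set the value of *CD3E*, by which the other cells were chosen.

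No CD3 gene was called against other CD3E+ cells. Of 17 genes of receptor signalling, adaptors and the SLAM-SAP pathway, 14 passed and only *TYROBP* was called, with a median of 0.017. *CD3E* had 1249 CPM (1164 to 1339) in gated cells and 1407 CPM (1394 to 1421) in other CD3E+ cells. The latter were chosen by *CD3E*, so this value is a description that the rule can set. *TRAC*, the constant segment of the alpha chain, had 374 CPM (328 to 425) against 381 CPM (373 to 388). *CD3G* was somewhat lower, with 274 CPM (235 to 318) against 423 CPM (415 to 430). *HCST*, which encodes DAP10, the other adaptor of NK receptors, had 956 CPM (881 to 1035) against 902 CPM (891 to 913), so the difference in *TYROBP* was not shared by it.

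*FYN*, a Src family kinase that acts with SAP in NKT cell development, had 161 CPM (131 to 195) in gated cells, 85.9 CPM in TRAV10-only cells and 79.1 CPM (75.9 to 82.4) in other CD3E+ cells. The log2 ratio against other CD3E+ cells was 1.02 (0.72 to 1.31), and 0.94 with 10 CPM added, just short of a call. *SLA2*, an inhibitory adaptor of receptor signalling, had 123 CPM (97.3 to 154) against 67.1 CPM. *SH2D1A*, which encodes SAP, had 34.7 CPM (21.7 to 52.5) in gated cells and 31.7 CPM in other CD3E+ cells. It had 8.38 CPM in TRAV10-only cells (4 UMIs), and was called in that comparison together with *TYROBP*. There *SH2D1A* passed the filter through the gated cells alone.

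Few cytotoxic genes were called. Of 12 found, 9 passed, and *CTSW*, which encodes the granule protease cathepsin W, was the 1 gene called against other CD3E+ cells, at 252 CPM (215 to 295) against 102 CPM (98.2 to 106). The median was 0.18. *GZMM*, which encodes granzyme M, had 203 CPM (170 to 242) against 99.9 CPM, a log2 ratio of 1.03 (0.76 to 1.28) that was 0.96 with 10 CPM added, and it was called against TRAV10-only cells (81.7 CPM). *GZMB*, which encodes granzyme B, was lower in gated cells, at 685 CPM (622 to 752) against 1194 CPM in TRAV10-only cells and 1253 CPM in other CD3E+ cells. Here levels and shares differed. After thinning, 40.4% of gated cells (32.3 to 49.0) and 41.9% of other CD3E+ cells had *GZMB*, against 6.33% of the B gene cells, while the highest count in a cell was 30 in the gate and 146 among other CD3E+ cells. *GZMK* showed the same, with 191 CPM in gated and 252 CPM in other CD3E+ cells but thinned shares of 23.4% and 15.8%.

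*NKG7* and *CST7*, genes of cytotoxic granules, were found in most gated cells at levels near those of other CD3E+ cells. *NKG7* had 957 CPM (883 to 1037) in gated cells and 846 CPM (835 to 856) in other CD3E+ cells. It was found in 81.6% of gated cells after thinning (74.2 to 87.6), 43.3% of TRAV10-only cells and 53.3% of other CD3E+ cells. *CST7* was found in 60.3%, 42.3% and 46.3%. These transcripts were thus spread more evenly over the gated cells than over the groups beside them. *PRF1*, which encodes perforin, had 106 CPM (81.9 to 134) in gated cells and 70.9 CPM in other CD3E+ cells, and *GNLY*, which encodes granulysin, had 427 CPM (378 to 481) against 379 CPM.

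**Figure D3:**
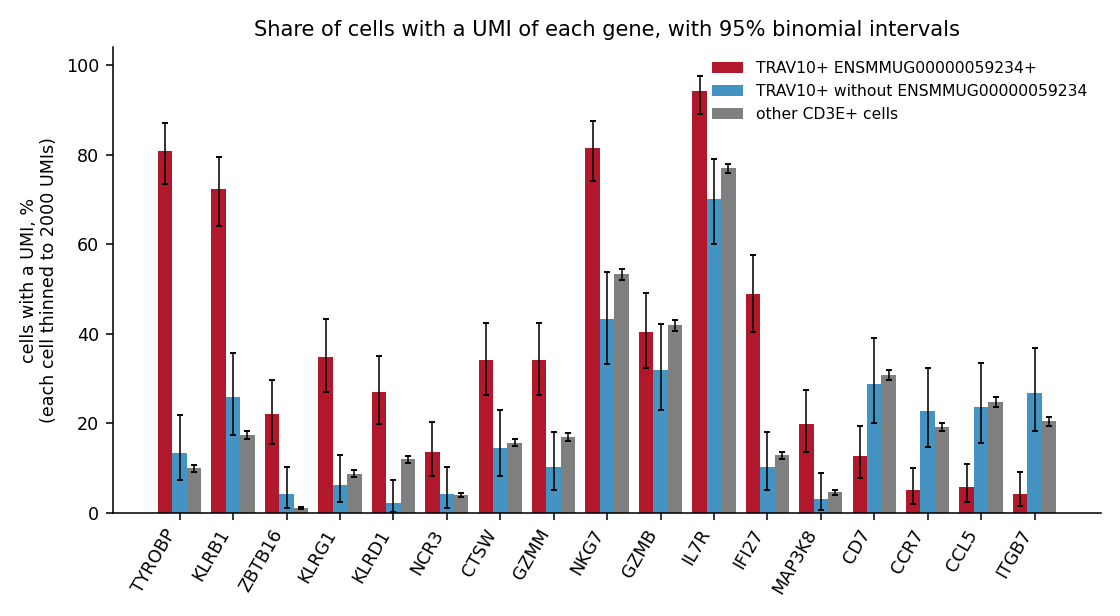
Share of cells with a UMI of each gene (percent) after each cell was thinned to 2000 UMIs, in gated, TRAV10-only and other CD3E+ cells, with 95% binomial intervals as error bars. *TYROBP* was found in 80.9% and *KLRB1* in 72.3% of gated cells, while *CCR7*, *CCL5* and *ITGB7* were found in fewer gated cells than other cells.

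Few cytokine and chemokine genes passed the filter. Of 18 found, 4 passed and 1, *CCL5*, was called, as lower. *CCL5*, a chemokine of memory and cytotoxic T cells, had 47.3 CPM (31.9 to 67.6) in gated cells, 283 CPM (237 to 335) in TRAV10-only cells and 293 CPM (287 to 299) in other CD3E+ cells. The log2 ratios were -2.63 (-3.20 to -2.12) and -2.58 (-3.20 to -2.0). *LTB*, which encodes lymphotoxin beta, had 946 CPM (872 to 1025) against 963 CPM in other CD3E+ cells.

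Among 15 chemokine and egress receptors, 6 passed and *CCR7* was the 1 called, as lower. *CCR7*, the receptor for entry into lymph nodes, had 33.1 CPM (20.5 to 50.6) in gated cells, 168 CPM (133 to 209) in TRAV10-only cells and 146 CPM (142 to 151) in other CD3E+ cells. *CCR9*, a gut homing receptor, had 2 UMIs in gated cells and 69.1 CPM (47.6 to 97.1) in TRAV10-only cells, and was called in that comparison. It passed the filter there through the TRAV10-only cells alone. *CXCR6* and *CCR2*, which lead effector cells to tissue, had 15 and 17 UMIs in gated cells, or 23.7 CPM (13.2 to 39.0) and 26.8 CPM (15.6 to 42.9), against 9.14 CPM and 9.03 CPM in other CD3E+ cells. Both were below the filter. *S1PR1*, the receptor for egress into blood, had 292 CPM (251 to 337) against 223 CPM (218 to 229).

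Of 17 cytokine receptor genes, 8 passed and none was called against other CD3E+ cells, with a median of 0.35. *IL7R*, the alpha chain of the interleukin-7 receptor, had 1688 CPM (1588 to 1792) in gated cells and 1139 CPM (1127 to 1151) in other CD3E+ cells, and after thinning it was found in 94.3% and 77.0%. *IL2RB*, a chain shared by the receptors for interleukin-2 and interleukin-15, had 177 CPM (145 to 213) against 99.1 CPM (95.5 to 103), and was called against TRAV10-only cells (79.6 CPM). *IL18RAP*, *IL12RB2* and *IL18R1*, chains of the receptors for interleukin-18 and interleukin-12, had between 10 and 15 UMIs each in gated cells and stayed below the filter. Their log2 ratios against other CD3E+ cells were 2.76 (1.75 to 3.64), 2.03 (0.93 to 2.96) and 1.10 (0.24 to 1.84).

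Part of the naïve and central memory genes were lower. Of 12 found, 10 passed, 4 were at least 2-fold lower against other CD3E+ cells and none was higher, with a median of -0.53. The counts were the same against TRAV10-only cells, with a median of -0.64 over the 10 that passed and -0.34 over all 12. Besides *CCR7* they included *LEF1*, a transcription factor of naïve T cells, with 39.4 CPM (25.5 to 58.2) against 108 CPM (104 to 112), and *CD7*, a surface glycoprotein, with 117 CPM (91.7 to 147) against 292 CPM (286 to 298). *TCF7*, the partner of *LEF1*, was not called, with 66.2 CPM (47.7 to 89.5) against 84.0 CPM (80.7 to 87.4), and *SATB1*, a chromatin organizer, lay on the other side, with 169 CPM (138 to 204) against 97.0 CPM (93.5 to 101).

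Memory and adhesion genes held 20 found members, of which 18 passed, 2 were lower against other CD3E+ cells and none higher, with a median of -0.16. *ITGB1* and *ITGB7*, the integrin beta chains that pair with *ITGA4*, had 82.0 CPM (61.3 to 108) against 196 CPM (191 to 201) and 36.3 CPM (23.0 to 54.4) against 122 CPM (118 to 126). *ITGA4* itself had 528 CPM (473 to 588) against 502 CPM (494 to 510). *ITGAL*, the alpha chain of LFA-1, had 210 CPM (176 to 249) against 142 CPM in other CD3E+ cells and 81.7 CPM in TRAV10-only cells. Against TRAV10-only cells it was called as higher, and *S100A6*, *ITGB1* and *ITGB7* were called as lower. *S100A4* was found in 98.6% of gated cells, and its level of 2946 CPM (2814 to 3083) and the 2935 CPM (2916 to 2955) of other CD3E+ cells had overlapping intervals.

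Of 20 activation and immediate-early genes, 18 passed and 1 was called, with a median of 0.22. *MAP3K8*, a kinase of inflammatory signalling, had 103 CPM (79.1 to 131) in gated cells, 23.0 CPM in TRAV10-only cells and 25.4 CPM in other CD3E+ cells, with log2 ratios of 2.01 (1.63 to 2.38) and 2.15 (1.22 to 3.23). It was found in 32.2% of gated cells, and also in 44.2% of the B gene cells. *NFKBIA*, an inhibitor of NF-κB, had 1112 CPM (1031 to 1197) against 642 CPM (633 to 651), and *DUSP1*, a phosphatase of MAP kinases, had 1626 CPM (1528 to 1729) against 1007 CPM (995 to 1018). *CD69*, an early activation marker, had 543 CPM (487 to 603) against 554 CPM. Of 10 checkpoint and costimulation genes, 5 passed and none was called against other CD3E+ cells. Against TRAV10-only cells 6 passed, and *LAG3*, an inhibitory receptor, was called as lower, with 3 UMIs in the gate (4.73 CPM) and 37.7 CPM in TRAV10-only cells. *LAG3* passed the filter there through the TRAV10-only cells alone. *PDCD1*, which encodes PD-1, had 89.9 CPM (68.1 to 116) against 130 CPM (126 to 134).

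CD4 and CD8 were examined as protein and as RNA. On the surface, the gated cells had a median of 411.5 CD4 tag UMIs and 452 CD8 tag UMIs per cell, against 386 and 339 in other CD3E+ cells and 428 and 396 in TRAV10-only cells. The quartiles of the gated cells were 336.5 and 533 for CD4 and 305.25 and 678 for CD8. The background level of a tag was the value that 90% of B gene cells did not pass, 191 for CD4 and 330.5 for CD8. By these levels, 98.6% of gated cells (95.1 to 99.8) were above background for CD4 and 69.2% (61.0 to 76.5) for CD8. Cells above both made up 68.5% of the gate (60.3 to 75.9), 55.9% of TRAV10-only cells (45.7 to 65.7) and 48.6% of other CD3E+ cells (47.5 to 49.8). A further 30.1% of gated cells were above the level for CD4 alone, and 1 cell was above neither.

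Among the coreceptor RNAs, *CD4* and *CD8A* were near the level of other CD3E+ cells and *CD8B* was lower. *CD4* had 169 CPM (138 to 204) against 175 CPM (170 to 180) and *CD8A* had 155 CPM (125 to 188) against 176 CPM (171 to 181). *CD8B*, which encodes the beta chain of the conventional CD8 coreceptor, had 1 UMI in all 146 gated cells, 3 in TRAV10-only cells and 17.3 CPM (15.8 to 18.9) in other CD3E+ cells. The ratio of gated to other CD3E+ cells was 0.0911, with a log2 interval from -8.76 to -0.97.

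**Figure D4:**
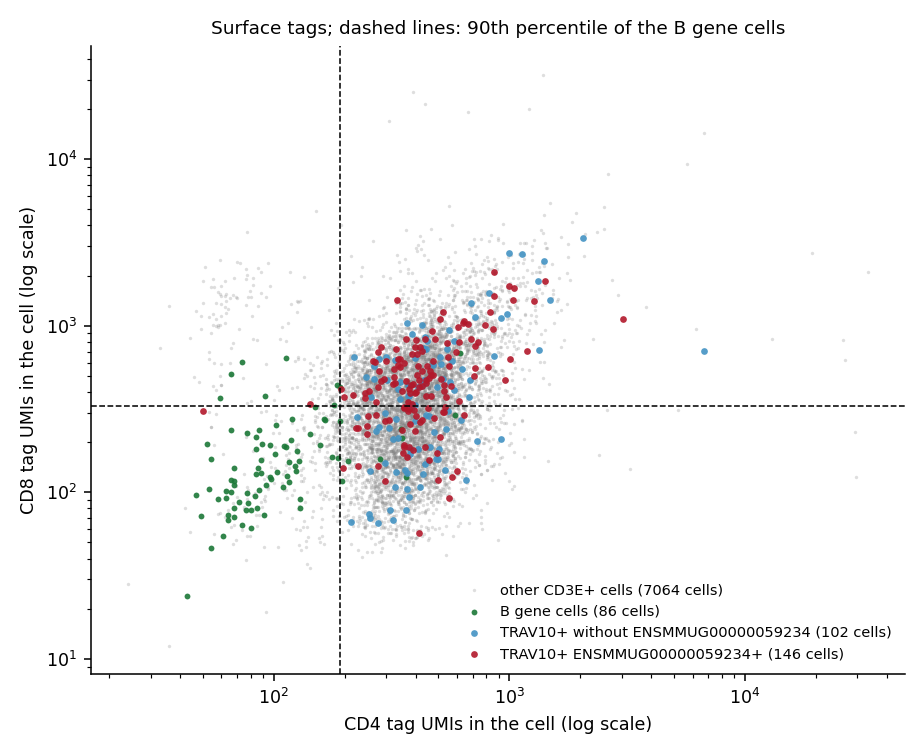
CD4 (horizontal axis) and CD8 (vertical axis) tag UMIs of each cell on log scales, with colours for gated cells, TRAV10-only cells, other CD3E+ cells and B gene cells, and dashed lines at both background levels. The gated cells lie among the other CD3E+ cells, with 68.5% above both lines.

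Receptor segments were compared next. Beside *TRAV10*, 24 alpha segments are named among the features, and 17 gated cells (11.6%, 6.93 to 18.0) had a UMI of at least 1 of them, against 52.9% of TRAV10-only cells (42.8 to 62.9) and 53.6% of other CD3E+ cells (52.4 to 54.7). Other CD3E+ cells lack *TRAV10* by the rule. Among 21 named beta segments, at least 1 was found in 58 gated cells (39.7%, 31.7 to 48.1), 48.0% of TRAV10-only cells (38.0 to 58.2) and 46.9% of other CD3E+ cells. With *TRBV7-2* left out, a segment named after its values were seen, the shares were 11% (6.40 to 17.2), 42.2% and 45.0%. The gate asks for ENSMMUG00000059234, which lies among the beta segments in the deposited list, and TRAV10-only cells lack it by the rule, so the shares of beta segments are a description that the rule can set. *TRBV5-1* and *TRAV12-2* had 0 UMIs in the gate, where 3 UMIs would be 4.73 CPM, and were at least 13.2-fold and at least 12.2-fold lower than in other CD3E+ cells. *TRBV27* and *TRBV9*, further beta segments, had 3 and 1 UMIs in the gate and 111 CPM and 80.3 CPM in other CD3E+ cells. The named segments that did reach 5 UMIs in the gate, beside *TRGV9*, *TRGV1* and *TRBV7-2*, were *TRAV17* with 19 UMIs, *TRAV19* and *TRBV19* with 12 each, *TRBV7-3* with 11, *TRAV8-6* with 7, *TRBV11-1* with 6 and *TRAV36DV7* with 5. Segments without a symbol, ENSMMUG00000059234 among them, are not counted here.

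*TRGV9*, a variable segment of the gamma chain, had the largest ratio of CPM + 10 in both comparisons, the genes of the gate left aside, among genes with 20 or more UMIs in the higher group. Gated cells had 161 UMIs, or 254 CPM (216 to 296), against 16.8 CPM (7.23 to 33.0) in TRAV10-only cells and 5.72 CPM (4.89 to 6.66) in other CD3E+ cells. In both comparisons it passed the filter of 20 CPM through the gated cells alone. The log2 ratios were 5.47 (5.15 to 5.79) and 3.92 (2.91 to 5.16). It was found in 83 gated cells (56.8%, 48.4 to 65.0), 6 TRAV10-only cells and 59 other CD3E+ cells, so that 83 of all 148 kept cells with *TRGV9* were in the gate. *TRGV1*, another named gamma segment, was found in 18 gated cells (12.3%, 7.47 to 18.8) and in 6.58% of other CD3E+ cells. *TRDV3*, a variable segment of the delta chain and the only gene of the gamma delta T cell list that was found by name, had 0 UMIs in the gate, which allows up to 4.73 CPM, and 3.45 CPM in other CD3E+ cells, so a difference was not detectable at this depth.

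Both *TRBV7-2* and ENSMMUG00000057062, a gene without a symbol that the deposited list places beside *TRAV12-2*, were found in more gated cells than other cells. *TRBV7-2* was found in 45 gated cells (30.8%, 23.5 to 39.0), 7.84% of TRAV10-only cells and 2.62% of other CD3E+ cells. Its level differed less, with 123 CPM (97.3 to 154) in gated and 66.2 CPM (63.2 to 69.2) in other CD3E+ cells. ENSMMUG00000057062 was found in 54 gated cells (37.0%, 29.2 to 45.4), 5.88% of TRAV10-only cells and 4.33% of other CD3E+ cells. Beta segments of 1 family can be near-identical, so the value of *TRBV7-2* is uncertain where reads could belong to several copies.

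**Figure D5:**
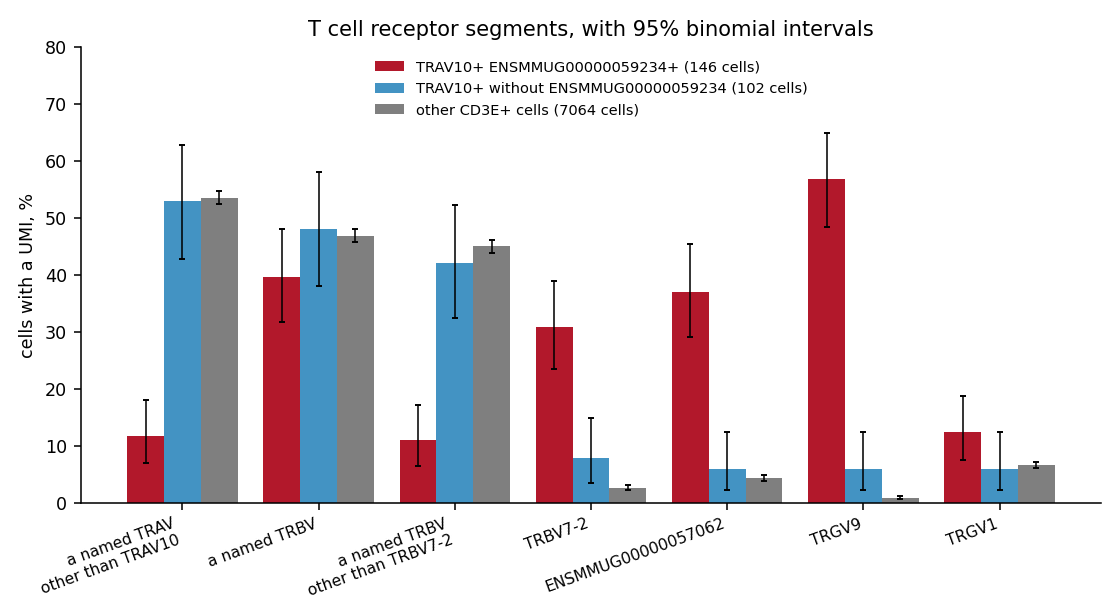
Share of cells with a UMI (percent) of T cell receptor segments in gated, TRAV10-only and other CD3E+ cells, with 95% binomial intervals as error bars and no thinning. Other named alpha segments were found in 11.6% of gated cells, any named beta segment in 39.7% and *TRGV9* in 56.8%.

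Beyond receptor segments and markers, the leading genes that were higher against other CD3E+ cells were *BLK*, *IFI27*, *CEBPD* and *TUBA8*. *BLK*, a Src family kinase best known in B cells, had 59.9 CPM (42.4 to 82.3) in gated cells, from 38 UMIs in 35 cells, against 8.38 CPM in TRAV10-only cells and 3.96 CPM (3.27 to 4.76) in other CD3E+ cells. It was found in 24.0% of gated cells and in 48.8% of the B gene cells. Of the B cell markers, *CD79A* had 5 UMIs in the gate, and *MS4A1*, *CD79B* and *BANK1* had 0, and the part of B cell RNA in *BLK* was not tested. *IFI27*, an interferon-induced gene, had 454 CPM (403 to 510) in gated cells, 75.4 CPM (52.8 to 104) in TRAV10-only cells and 100 CPM (96.9 to 104) in other CD3E+ cells. It was found in 96 gated cells, with a highest count of 13, so it did not rest on a few cells. *CEBPD*, a transcription factor of the C/EBP family, had 69.4 CPM (50.4 to 93.2), 35.6 CPM and 9.76 CPM. *TUBA8*, an alpha tubulin, had 53.6 CPM (37.1 to 74.9), 12.6 CPM and 6.27 CPM.

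Against TRAV10-only cells, *USH1C*, *OTOG* and *OLFM1* were also among the 10 leading genes. *USH1C*, which encodes the scaffold protein harmonin, had 117 CPM (91.7 to 147) in gated cells, 8.38 CPM in TRAV10-only cells and 28.2 CPM (26.3 to 30.2) in other CD3E+ cells. *OTOG*, which encodes otogelin, had 22 UMIs in gated cells (34.7 CPM) and 0 in TRAV10-only cells, and was at least 5.52-fold higher. The genes are neighbours on chromosome 14, where *OTOG* spans 47987498 to 48091047 and *USH1C* 48093320 to 48143730, with 2272 bases between them. *OLFM1*, which encodes a secreted olfactomedin, had 21 UMIs and 0, and was at least 5.27-fold higher. Both *OTOG* and *OLFM1* were named through the minimum of 20 UMIs in the higher group, and their mean over the groups was below the filter of 20 CPM.

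Among genes that were lower, *MAMU-DRA* and *CD74*, the alpha chain of MHC class II and the invariant chain that accompanies it, stood out beside the receptor segments. *MAMU-DRA* had 12.6 CPM (5.45 to 24.9) in gated cells, 159 CPM (125 to 199) in TRAV10-only cells and 140 CPM (135 to 144) in other CD3E+ cells. *CD74* had 230 CPM (194 to 271), 760 CPM and 742 CPM. Both are B cell transcripts too, found in 98.8% and 100% of the B gene cells. The summed level of the 5 B cell markers was 7.89 CPM in gated cells, all of it *CD79A*, and 75.5 CPM in other CD3E+ cells, and the part of B cell RNA in the class II difference was not tested. Without cells that had a B cell gene UMI, 142 gated cells remained and 32 genes were higher and 48 lower against other CD3E+ cells. *HBB*, a hemoglobin chain, was lower with 0 UMIs in the gate, but 2649 of its 2660 UMIs in other CD3E+ cells came from 1 cell. *HBA*, the other chain, had 12.6 CPM in gated cells and 156 CPM in other CD3E+ cells, where 1 cell held 3270 of 4520 UMIs.

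Markers of other cell types were summed in the gate and in other CD3E+ cells. The 6 monocyte markers summed to 3.15 CPM in gated cells and 5.62 CPM in other CD3E+ cells, with *VCAN*, *CSF1R*, *FCN1* and *CST3* at 0 in the gate, and *VCAN* and *FCN1* at 0 in other CD3E+ cells as well. The 3 platelet markers summed to 1.58 CPM and 0.483 CPM, the 5 cycling markers to 12.6 CPM and 25 CPM, and the 3 plasmacytoid dendritic cell markers to 33.1 CPM and 29.96 CPM, all of it *IRF7* in the gate. The 3 red blood cell markers summed to 12.6 CPM, all of it *HBA*, and 248 CPM. The 3 NK cell markers found summed to 115 CPM and 71.2 CPM, all of it *KLRF1* in the gate. None of the 4 regulatory T cell markers passed the filter. The 4 markers of cytotoxic T cells summed to 834 CPM and 1413 CPM, most of it *GZMB*. Of these, 3 of 4 passed, and of the markers found for mucosal-associated invariant T cells 1 of 4, and none was called.

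The gated cells were not uniform. The 101 cells above the CD8 tag level had 862 CPM of *GZMB* and the 45 cells below it 167 CPM, a log2 ratio of 2.37 (1.80 to 2.99). *GZMB* was found in 67.3% and 22.2% of them, and in 8.14% of the B gene cells, with up to 147 UMIs in a B gene cell. *CD8A* and *TRBV7-2* differed in the same direction, with 186 CPM and 61.9 CPM and with 144 CPM and 61.9 CPM. *GZMK* and *CCR7* had lower CPM above the level, with log2 ratios of -0.79 (-1.34 to -0.23) and -1.69 (-3.08 to -0.31). *CCR7* had only 10 UMIs above the level and 11 below it. The shares of cells had overlapping intervals, with 36.6% above and 40% below for *GZMK*, and 7.92% and 11.1% for *CCR7*. *TYROBP* was alike above and below the level, with 1084 CPM and 1046 CPM and a log2 ratio of 0.05 (-0.20 to 0.31). The levels of *KLRB1* and *ZBTB16* differed by log2 ratios of 0.26 (-0.05 to 0.58) and -0.57 (-1.26 to 0.14), whose intervals hold 0. *GZMB* was thus the gene that differed most between cells above and below the CD8 level among those named here.

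The gated cells were also divided by *TRGV9*. The 83 cells with a UMI and the 63 without had median depths of 3924 and 3701 UMIs. *GZMK* had 252 CPM with *TRGV9* and 110 CPM without, a log2 ratio of 1.19 (0.58 to 1.84), and *PRF1* had 133 CPM and 69.8 CPM, a log2 ratio of 0.93 (0.13 to 1.78). *CCR7* had 4 UMIs with *TRGV9* and 17 without. *ZBTB16* had 119 CPM and 147 CPM, with an interval of the log2 ratio from -0.96 to 0.35. *TYROBP* had 1250 CPM and 841 CPM, a log2 ratio of 0.57 (0.34 to 0.81), and *KLRB1* 827 CPM and 734 CPM, a log2 ratio of 0.17 (-0.09 to 0.44). By level, cells with *TRGV9* thus had more *GZMK*, *PRF1* and *TYROBP* and less *CCR7*. Differences were smaller in *NKG7* (0.35, 0.11 to 0.60) and *GNLY* (0.41, 0.04 to 0.78), and *IL7R* was somewhat lower (-0.25, -0.43 to -0.08). The intervals of the ratios of *ZBTB16* and *KLRB1* held 0. By share of cells, *KLRB1* was found in 88.0% (79.0 to 94.1) with *TRGV9* and 71.4% (58.7 to 82.1) without. *TRBV7-2* was found in 42.2% (31.4 to 53.5) and 15.9% (7.88 to 27.3), at 116 CPM and 132 CPM. A split by the gate itself uses the values that chose the cells, so it is a description that the rule can set. The 115 cells with at least 2 UMIs of both genes had 236 CPM of *KLRG1* and the other 31 cells 93.9 CPM, a log2 ratio of 1.33 (0.50 to 2.28). Those 31 cells had 13 *KLRG1* UMIs and 6 *TRBV7-2* UMIs. *TYROBP* had 1160 CPM and 766 CPM (0.60, 0.30 to 0.91), *TRGV9* and *TRBV7-2* were also higher in the cells with more UMIs (1.06, 0.37 to 1.84, and 1.74, 0.55 to 3.24), and *CD8A* was lower (-0.73, -1.36 to -0.06). *GZMK*, *KLRB1* and *NKG7* were higher with intervals that came close to 0 (0.87, 0.11 to 1.73, then 0.36, 0.03 to 0.71, and 0.37, 0.07 to 0.68).

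When the 2 genes of the gate and all named T cell receptor genes were left out, the gated cells still lay near each other. Of the 20 nearest neighbours of a gated cell, computed from 15 principal components, a mean of 43.7% were gated cells, against 1.92% of all kept cells. The median was 47.5%, 73 of the 146 cells had at least 10 gated neighbours and 21 had none. For TRAV10-only cells the mean was 4.07%, and for other CD3E+ cells 0.935%. With 10 components the mean of the gated cells was 27.2%, and with features that have a symbol alone it was 47.8%.

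Between TRAV10-only and other CD3E+ cells, 0.214% of 4667 genes were at least 2-fold higher (10 genes) and 0.386% lower (18 genes). These counts were sensitive to the settings, with 80 and 73 genes among cells of the gated cells' middle depth and 2 and 4 genes with a pseudocount of 50. Receptor segments led here too. *TRAV21* had 276 CPM (231 to 328) in TRAV10-only cells, from 20 cells, against 33.6 CPM in other CD3E+ cells and 4.73 CPM in the gate. ENSMMUG00000062085, which has no symbol, had 272 CPM (227 to 323), 21.1 CPM and 1.58 CPM. *CCR9* had 69.1 CPM against 28.9 CPM, and *KLRD1* was among the lower genes.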

How the data were processed

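RNA and antibody tag libraries of sorted DP T cells of 1 animal were read from the deposited matrix. The authors made the counts, whole UMI counts per feature and barcode, on the Mmul_10 build. The submitters' processing notes name Cell Ranger 3.1.0 and STAR 2.5.1b. The sources used here do not name an annotation release. Barcodes with 200 to 4000 genes and at most 20% UMIs of 13 named and 2 further mitochondrial genes were kept (7601 of 7923). UMIs were summed per group without normalization other than CPM, and intervals, thinning (seed 1) and principal components (2000 variable genes) were computed in Python 3.11.15 with scipy 1.17.1 and scanpy 1.11.5. The median UMIs per cell and the summed UMIs set the precision, and 1 UMI was worth 1.58 CPM in the gate.

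The members and the 24 gene lists (220 names, 202 found) were chosen with earlier results of these data known. The name table gave a symbol to 720 features, and positions were taken by symbol from RefSeq Mmul_10. Named genes were those of the lists and, for each of the 3 comparisons, the 10 highest and 10 lowest by ratio of CPM + 10, given 20 or more UMIs in the higher group, and receptor segments with 5 or more UMIs in the gate. *TRAC*, *TRAJ18*, *CD74*, *TRGV1*, *TRBV7-2*, *NKG2D*, *SAMD3* and *FOSL2* were named after their values were seen. Results for some genes are not reported here.

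Doublets were not removed in the main analysis. Scrublet marked 0 of 7601 cells and was not relied on, and an alternative left out the 380 cells with the highest scores (6 of them gated). On simulated counts for gated against other CD3E+ cells, 92 percent of genes set to a log2 ratio of 1.5 and 86.5 percent of those at -1.5 were called, and 0.0227 percent of genes left alone. For gated against TRAV10-only cells these were 92, 72.2 and 0.583 percent. The simulated counts were Poisson draws of the summed groups without variation between cells, so these are not error rates of the real data. The alternatives changed the filters, the gate, the depth, the pseudocount and the components.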

Additional observations from a re-analysis of the deposited data

How the results depend on the processing

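No log2 ratio of *ZBTB16*, *TYROBP* or *KLRB1*, the genes recomputed one by one, changed sign. Of 66 recomputed log2 ratios of these 3 genes, 57 moved by less than their counting interval and 9 by more, and of 84 recomputed gene counts 49 stayed within 1.5 times. The gated cells numbered 115 (1.51%) with at least 2 UMIs of each gene and 99 (1.30%) with the gate set after thinning, where 49 genes were higher than in other CD3E+ cells. Counts of genes past 2-fold moved with the settings, given as higher and lower against other CD3E+ cells, then against TRAV10-only cells, then TRAV10-only against other CD3E+ cells. A pseudocount of 1 gave 50 higher, 150 and 135, then 27 and 51. A pseudocount of 50 gave 12 and 21, 14 and 19, then 2 and 4. A mean of at least 5 CPM gave 110 lower, 141 and 183, then 39 lower, and a mean of at least 50 CPM gave 18 and 22, 33 and 21, then 2 and 7. Totals without ribosomal and mitochondrial genes gave 53 and 80, 143 and 158, then 26 and 35. Means over cells gave 105 lower against TRAV10-only cells, then 17 and 28. Comparison cells of the gated cells' middle depth gave 192 and 175 against TRAV10-only cells, then 80 and 73. With 10 principal components, 27.2% of a gated cell's neighbours were gated. Where a count moved, the cause was not tested, apart from thresholds that admit more or fewer genes by construction. Added after seeing the data, leaving out cells with a B cell gene UMI gave 32 and 48, 85 and 69, then 8 and 24 genes. No paired analysis was possible because there is 1 sample, and for the same reason no replicate could be left out. With 633988 gated UMIs, a gene at 0 could have up to 4.73 CPM.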

Other observations

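Gated cells with and without *GZMB* were also compared. The 78 gated cells with a *GZMB* UMI had 121 CPM of *GZMK* and the 68 without had 285 CPM, a log2 ratio of -1.23 (-1.80 to -0.68). The shares of cells with *GZMK* had overlapping intervals, 33.3% (23.1 to 44.9) and 42.6% (30.7 to 55.2), so the levels differed without a division of the cells. *CX3CR1*, a chemokine receptor of cytotoxic T cells, had 52.3 CPM in the former and 14.8 CPM in the latter. *TYROBP* had 949 CPM and 1242 CPM, *KLRB1* 889 CPM and 650 CPM, and *ZBTB16* 105 CPM and 166 CPM, so none of these markers was limited to the cells with *GZMB*.

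Genes outside the lists included *FOSL2*, a subunit of the AP-1 transcription factor, with 80.4 CPM in gated cells, 33.5 CPM in TRAV10-only cells and 29.6 CPM in other CD3E+ cells. *SAMD3* had 55.2 CPM, 8.38 CPM and 21.4 CPM. Within the lists, *CTLA4* and *LAG3*, inhibitory receptors of activated T cells, had 4.73 CPM each in gated cells, or 3 UMIs. In other CD3E+ cells they had 21.2 CPM and 15.2 CPM. Among the 322 barcodes that failed the filters, 2 had both genes of the gate, and both were above the mitochondrial limit.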
